A study of Mus musculus with 8 samples.

Results

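The zinc finger genes named Zfp followed by a number form a large family of mouse genes, and their methylation was described in proximal colon organoids with and without active BrafV600E and after long culture. Members are the protein-coding genes on chromosomes 1 to 19 whose symbol is Zfp and digits only, apart from 1 symbol that the rule leaves out. Each gene was taken with its RefSeq span and 2 kb on either side. There are 360 such genes among 20665 autosomal protein-coding genes, and 132 of them hold at least 1 tile of the deposited tables. These tiles number 408 of 53375 distinct tiles, and they appear 586 times among 75041 listings, since a tile can be listed in several tables.

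The assay was reduced representation bisulfite sequencing, in which a restriction enzyme releases CpG-rich fragments whose methylation is then read, and it was run on 8 libraries of genomic DNA. The organoids, epithelial structures grown in gel from colon crypts, came from the proximal 2.5 cm of the colon of male mice about 40 days old. Every organoid carries a heterozygous Cre-activable BrafV600E allele, which encodes a BRAF kinase that signals without stimulus once switched on. In the BrafV600E Base group, lentiviral Cre had switched the allele on and the organoids were at 5 months of culture and growing in Base medium, a medium without factors of the stem-cell niche. Its control is the 5-month empty-vector (EV) group, which received the lentiviral backbone alone and stayed in full medium; the culture medium described by the labels holds Wnt3a, R-Spondin, Noggin and EGF. The long-culture EV group was kept in full medium for 12 months (line 1) or 14 months (line 3), and its control is the 2-month EV group in the same medium. All libraries were labelled with a last growth period of 3 weeks. Each of the 4 groups has organoid line 1 and organoid line 3. Only DNA methylation was read, so the tissue label was not checked against expressed markers.

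Each table compares 1 library with 1 library of the same line, so no test over samples was possible and the values are descriptions. A difference is in percentage points of methylation, positive where the BrafV600E Base library or the long-culture library was higher, as the tables are named. The authors listed only 200 bp tiles that differed by at least 20 points and had a q-value no higher than 0.01. An unlisted tile may be unchanged or uncovered, and the depth behind a tile is unknown. BrafV600E and the change of medium cannot be told apart. The library titled BrafV600E Base line 1 has line 3 in another label, and the library titled 14 months is tagged 2 months; the titles were followed. The values of line 1 with BrafV600E and of line 3 with long culture rest on that choice, and the values of the other line stand beside them throughout.

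C2H2 zinc finger proteins bind DNA through repeated finger domains, each held together by a zinc ion. Many mouse members carry a KRAB domain, which recruits the co-repressor Trim28 and the histone methyltransferase Setdb1, and so directs H3K9 trimethylation and DNA methylation to transposable elements and imprinted regions. KRAB zinc finger genes often lie in tandem clusters that arose by duplication. Other genes with the same name type are single developmental regulators such as Zfp423 and Zfp521, and Zfp36 encodes an RNA-binding protein with another type of finger.

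The promoter windows of 5 members are shown because tiles of one direction lay over them in both lines. Zfp422 and Zfp709 gained with BrafV600E, Zfp853 gained in both comparisons, Zfp641 gained with long culture, and Zfp287 lost with BrafV600E and gained with long culture. Each window is the RefSeq sequence of GRCm38.p6 from 250 bases before to 50 bases after the annotated start, written 5′ to 3′ along the gene, with CpG sites in capitals.
Zfp422, chr6:116628652-116628951, minus strand: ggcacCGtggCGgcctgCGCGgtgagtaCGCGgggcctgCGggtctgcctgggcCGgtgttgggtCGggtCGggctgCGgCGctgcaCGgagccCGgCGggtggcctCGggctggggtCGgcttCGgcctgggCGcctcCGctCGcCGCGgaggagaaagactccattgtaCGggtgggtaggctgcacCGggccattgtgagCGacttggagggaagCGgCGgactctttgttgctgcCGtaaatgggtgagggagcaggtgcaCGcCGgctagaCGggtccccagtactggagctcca
Zfp709, chr8:71881818-71882117, plus strand: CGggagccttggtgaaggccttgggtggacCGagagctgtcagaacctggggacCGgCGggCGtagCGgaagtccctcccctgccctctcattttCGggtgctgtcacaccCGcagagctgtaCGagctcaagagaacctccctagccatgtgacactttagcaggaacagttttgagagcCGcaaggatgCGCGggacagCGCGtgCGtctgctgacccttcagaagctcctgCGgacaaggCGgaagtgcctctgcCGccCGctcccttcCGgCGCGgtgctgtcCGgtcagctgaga
Zfp853, chr5:143293485-143293784, minus strand: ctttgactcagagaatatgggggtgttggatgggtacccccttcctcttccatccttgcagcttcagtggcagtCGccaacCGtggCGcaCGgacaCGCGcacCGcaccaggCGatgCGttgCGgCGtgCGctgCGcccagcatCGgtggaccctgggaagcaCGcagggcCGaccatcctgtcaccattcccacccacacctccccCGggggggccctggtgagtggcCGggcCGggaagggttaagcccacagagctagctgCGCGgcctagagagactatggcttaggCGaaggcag
Zfp641, chr15:98296112-98296411, minus strand: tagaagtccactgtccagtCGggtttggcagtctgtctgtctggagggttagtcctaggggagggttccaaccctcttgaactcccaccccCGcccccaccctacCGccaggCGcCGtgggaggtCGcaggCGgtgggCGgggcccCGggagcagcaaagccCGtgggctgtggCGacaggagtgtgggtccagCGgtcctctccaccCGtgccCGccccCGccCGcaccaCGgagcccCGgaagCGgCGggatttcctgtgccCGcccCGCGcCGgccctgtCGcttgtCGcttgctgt
Zfp287, chr11:62731847-62732146, minus strand: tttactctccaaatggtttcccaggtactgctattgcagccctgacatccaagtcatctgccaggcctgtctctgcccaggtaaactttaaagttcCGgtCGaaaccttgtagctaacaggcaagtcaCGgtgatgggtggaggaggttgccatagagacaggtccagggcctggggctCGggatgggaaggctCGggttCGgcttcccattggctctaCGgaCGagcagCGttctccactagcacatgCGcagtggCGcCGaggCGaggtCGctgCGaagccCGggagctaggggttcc
The Zfp422 window holds 32 CpG sites, the Zfp641 window 26, the Zfp709 window 23, the Zfp853 window 22 and the Zfp287 window 16. The sequence CCGG, which is its own reverse complement and is the site cut by MspI, the usual enzyme of this assay, occurs 4 times at Zfp422, 3 times each at Zfp709, Zfp853 and Zfp641, and 2 times at Zfp287. The enzyme used is not given in the sources used here. CCGG was found in 73.6% of 363 promoter windows of 301 members with an entry, against 63.5% of 20085 windows of all autosomal protein-coding genes. The median window had 14 CpG sites in both.

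Per Mb of window, Zfp genes as a whole held about as many listed tiles as protein-coding genes in general, in each of the 4 tables. The share of genes with a listed tile was lower. At least 1 tile was listed at 36.7% of members (exact 95% binomial interval 31.7 to 41.9, for counting error only), against 46.5% of 20305 other autosomal protein-coding genes and 46.3% of all. The median span was 18104 bp for members and 17476 bp for other genes. With BrafV600E, members held 10.1 tiles per Mb of window in line 1 and 17.1 in line 3, against 10.3 and 17.3 over all protein-coding genes. With long culture they held 5.37 tiles per Mb in line 1 and 13.7 in line 3, against 5.50 and 14.5. Without Zfp536, Zfp503, Zfp423 and Zfp521, 94 of 128 and 147 of 216 Zfp tiles remain with BrafV600E in lines 1 and 3. For long culture, 53 of 68 and 113 of 174 remain. The density without these genes was not computed. Tiles of a gene and of neighbouring genes are not independent, and the difference in the share of genes was not tested.

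The listed tiles were concentrated in few members. Zfp536 had 58 listings, Zfp503 had 51, Zfp423 had 43 and Zfp521 had 27, together 30.5% of all listings, and Zfp853 followed with 19, Zfp580 with 18 and Zfp697 with 15. Of the 134 members with no other member within 200 kb, 61 (45.5%) were listed, and of the 226 members in clusters 71 (31.4%) were. The median span was 21282 bp for single and 16082 bp for clustered members, and the median promoter window held 18 CpG sites for single and 11 for clustered members; the part of either in these shares was not tested. A listed tile was found at 9 of the 10 longest members, the exception being Zfp407, and at 35.1% of the other 350. These 10 span 174155 to 478623 bp, and the share at other genes of such length was not computed.

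The BrafV600E Base libraries, set against the 5-month EV libraries of their own line, address methylation under the active oncogene in a medium without niche factors. Among the Zfp tiles of line 1, 82 gained and 46 lost, a gain share of 64.1% (exact 95% interval 55.1 to 72.3), against 67.6% of all autosomal tiles. In line 3, 113 gained and 103 lost, a share of 52.3% (45.4 to 59.1), against 40.4%. Line 1 had the higher share both at Zfp genes and over all tiles, though at Zfp genes this order turned round without the longest members and close to gene starts. Zfp gains had a median of 43.4 points for line 1 and 42.9 for line 3, and Zfp losses of -41.9 and -39.4, per the authors' deposited tables.

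The line 3 balance moved toward gains without the long genes. Without the 10 longest members, 61% of 100 Zfp tiles of line 1 and 67.1% of 140 of line 3 gained, so line 3 then had the higher share. The same held within 1 kb of a start, with 67.8% of 59 tiles in line 1 and 75.9% of 54 in line 3. Without the 4 members with most listings the shares were 63.8% of 94 tiles in line 1 and 59.2% of 147 in line 3. With tiles within 500 bp merged into regions they were 61.9% of 84 regions in line 1 and 45.7% of 164 in line 3. Counted by genes, 41 members (11.4%) had a gained tile in line 1 against 18.6% of all genes, and 53 (14.7%) did in line 3 against 21.7%. A lost tile was present at 29 members (8.06%) in line 1 against 11% of all genes, and at 40 (11.1%) in line 3 against 21.1%.

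**Figure D1:**
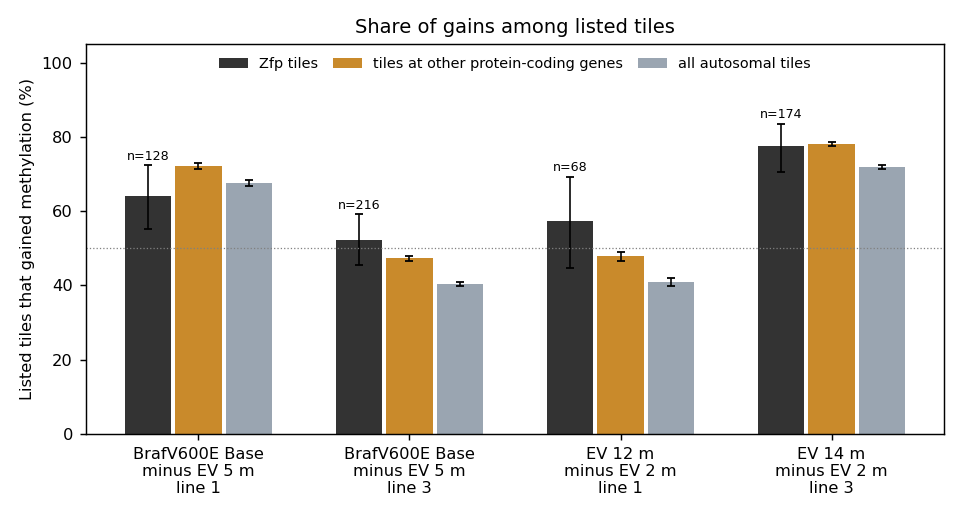
Share of listed tiles that gained methylation, in percent, for each of the 4 tables, at Zfp genes, at other protein-coding genes and over all autosomal tiles; bars are shares and error bars exact 95% binomial intervals for counting error only. Zfp tiles lie above the all-tile share in BrafV600E line 3, at 52.3% against 40.4%. They also do so with long culture, at 57.4% against 41% in line 1 and 77.6% against 71.8% in line 3. That 71.8% lies inside the Zfp interval. Tiles at other protein-coding genes lie above these all-tile shares too, at 47.3%, 47.8% and 78.1%, which lie inside the Zfp intervals. The dotted line marks an even split. With a difference of at least 40 points the Zfp share in long-culture line 1 is 43.6%, and the all-tile share at that limit was not computed.

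With long culture, the lines again differed in balance. In line 1, 39 Zfp tiles gained and 29 lost, a gain share of 57.4% (44.8 to 69.3), against 41% of all autosomal tiles. Among the 39 of these tiles that differed by at least 40 points the share was 43.6% (27.8 to 60.4), so losses then outnumbered gains. In line 3, 135 gained and 39 lost, a share of 77.6% (70.7 to 83.5), against 71.8%. At tiles of other protein-coding genes the gain share was 72.2% in line 1 and 47.3% in line 3 with BrafV600E, and 47.8% in line 1 and 78.1% in line 3 with long culture. Each of these lies inside the interval at Zfp genes in the same table. Zfp gains had a median of 37.3 points for line 1 and 44.0 for line 3, and Zfp losses of -47.5 and -44.8, per the authors' deposited tables. A gained tile was present at 26 members (7.22%) in line 1 against 8.91% of all genes, and at 52 (14.4%) in line 3 against 20.9%. A lost tile was present at 19 members (5.28%) in line 1 against 11.3% of all genes, and at 31 (8.61%) in line 3 against 12.7%.

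A gene was called gained in a line if it had at least 1 gained tile and no lost tile, lost in the reverse case, and mixed otherwise. With BrafV600E, 18 members (5%) gained in both lines, against 4.5% of all genes, and 7 (1.94%) lost in both, against 1.75%. These shares are near those of all genes. Of the rest, 6 gained in line 1 and lost in line 3 (1.67%, against 2.32% of all genes), 7 did the reverse (1.94%, against 1.09%), and 10 (2.78%) were mixed in at least 1 line, against 11.2%. A further 26 members (7.22%) gained and 28 (7.78%) lost in 1 line only, counting genes with tiles of 1 direction, against 9.4% of all genes for each.

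Zfp422, Zfp580 and Zfp697 led the members that gained with BrafV600E in both lines. At Zfp422 (chr6:116624016-116628999, GRCm38.p6), 5 tiles in a row across the annotated start gained in line 1, by 71.0, 63.6, 52.8, 62.3 and 93.5 points from inside the gene outward in the authors' deposited table. The line 3 table of the authors' deposited set lists 4 of these 5 tiles, all but the innermost, with gains of 46.5, 67.0, 67.4 and 50.0 points. All listed tiles over the promoter window shown above were therefore gains in both lines, and no Zfp422 tile was listed with long culture. The smallest of the authors' deposited q-values there was 3.91e-60 in line 1 and 1.45e-100 in line 3, which describe these libraries and not the conditions.

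Zfp580 (chr7:5038519-5053723) had 5 gained tiles in each line with BrafV600E, 4 of them the same. Their mean difference in the authors' deposited tables was 51.0 points for line 1 and 43.0 points for line 3. They lay downstream of the start, at 0.2 to 2.0 kb in line 1 and 1.4 to 2.2 kb in line 3. The tile at chr7:5053201-5053400 was listed in every table, with gains of 83.6 and 50.9 points with BrafV600E and 75 and 85.9 points with long culture for lines 1 and 3 per the authors' deposited tables. Long culture in line 3 also lists a loss, -53.8 points in the authors' deposited table, at a tile in the upstream flank of Zfp580, which overlaps its neighbour Zfp784. The most downstream tile lies inside Ccdc106, and reads there cannot be assigned to either gene.

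Zfp697 (chr3:98381962-98431951) gained far from its start. All of its tiles lay in a stretch 44.8 to 46.0 kb downstream, inside the gene. With BrafV600E the mean gain in the authors' deposited tables was 31.4 points over 3 tiles for line 1 and 64.9 points over 6 tiles for line 3. With long culture it was 33.9 points over 2 tiles for line 1 and 38.6 points over 4 tiles for line 3 per the authors' deposited tables. No Zfp697 tile was lost in any table.

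Other members that gained with BrafV600E in both lines had fewer tiles. Zfp462, a zinc finger factor linked to heterochromatin in mouse embryonic stem cells, gained at the same 2 tiles in its body in both lines, by 66.8 and 67.3 points for line 1 and 81.2 and 68.1 points for line 3 per the authors' deposited tables. Zfp827, whose human counterpart binds telomeres, shared 1 tile between lines, with 76.3 points for line 1 and 55.0 points for line 3 per the authors' deposited tables, and had a further gain of 88.9 points for line 3. Zfp710 gained at 1 tile by 67.7 points for line 1 and at 6 tiles by a mean of 51.7 points for line 3 per the authors' deposited tables. The tile that the lines share had -30.6 points with long culture in line 3 of the authors' deposited table, where 2 other Zfp710 tiles gained. Zfp532, whose human counterpart is fused to NUTM1 in some carcinomas, gained at 4 tiles by a mean of 44.8 points for line 1 and at 1 tile by 43.9 points for line 3 per the authors' deposited tables. At Zfp651, on chromosome 9, 3 tiles gained by a mean of 31.3 points for line 1 and 2 tiles by 24.6 points for line 3 per the authors' deposited tables, most of them at the start. These 5 genes have no other Zfp gene within 200 kb.

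Several members with another Zfp gene within 200 kb gained at their starts with BrafV600E. Zfp709, on chromosome 8, gained at the same start tile by 41.4 points for line 1 and 35.3 points for line 3 per the authors' deposited tables, over the promoter window shown above. With long culture Zfp709 gained 71.5 points at 1 other tile in line 3 of the authors' deposited table. Zfp329 on chromosome 7 gained at 1 shared tile 0.8 kb downstream of its start, by 45.1 and 35.2 points for lines 1 and 3 per the authors' deposited tables. Zfp677 on chromosome 17 gained at different start tiles, by 49.7 points for line 1 and 41.3 points for line 3 per the authors' deposited tables. Zfp28 on chromosome 7 gained at a start tile by 55.2 points for line 1 and at the neighbouring tile by 23.3 points for line 3 per the authors' deposited tables. Both Zfp28 start tiles also lie in the flank of Zfp78, which is counted among the 18 through them. A further Zfp28 gain of 63.2 points for line 3 in the authors' deposited table lay in its downstream flank. That tile had -44.2 points with long culture in line 3 of the authors' deposited table. The remaining members of the 18 were Zfp853, Zfp648, Zfp882, Zfp647 and Zfp879, whose smaller mean gain of the lines ran down to 20.6 points in the authors' deposited tables. The single Zfp879 tile of each line also lies in the neighbouring gene Zfp354c.

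Zfp287, Zfp982 and Zfp296 led the 7 members that lost with BrafV600E in both lines. Zfp287 (chr11:62692444-62731912) encodes a protein with SCAN and KRAB domains. At its start, 4 neighbouring tiles differed by -100, -81.3, -81.8 and -53.6 points for line 1 in the authors' deposited table, from inside the gene outward. For line 3, 3 start tiles differed by -36.9, -33.9 and -46.3 points in the authors' deposited table, so the losses were smaller in line 3 at both tiles that the lines share. The smallest of the authors' deposited q-values at these tiles was 1.25e-55 in line 1 and 5.58e-15 in line 3.

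Zfp296, a factor of pluripotent cells, lost at a single tile near its 3′ end, with -87.5 points for line 1 and -88.9 for line 3 per the authors' deposited tables. The authors' deposited q-values of that tile were 1.23e-04 and 6.97e-03, nearer to the limit than those at Zfp287. Zfp982 lost at 2 tiles with a mean of -35.2 points for line 1 and at 5 tiles with -40.3 for line 3 per the authors' deposited tables, with both line 1 tiles among those of line 3. Zfp978 lost at 1 tile with -25.6 points for line 1 and at 8 tiles with a mean of -30.1 for line 3 per the authors' deposited tables. Both lie in a cluster on chromosome 4 whose genes resemble each other, where short reads can be placed at the wrong copy; how far that touches these values was not tested. Zfp516, a driver of brown fat genes, lost at different tiles, with -66.7 points for line 1 and -72.1 for line 3 per the authors' deposited tables. Zfp641 had a mean of -38.6 points for line 1 and -35.3 for line 3, and Zfp334 had -39.8 and -23.2, per the authors' deposited tables.

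Several members went in opposite directions in the lines with BrafV600E. Zfp362, on chromosome 4, is listed at the same 2 tiles in both lines. The authors' deposited tables give these tiles -50.6 and -26.8 points for line 1 and 88.7 and 40.0 for line 3. Zfp251 had 1 tile common to both lines, with 42.8 points for line 1 and -45.2 for line 3 per the authors' deposited tables. At Zfp704 and Zfp811 the lines had no tile in common. Zfp704 had a mean of -69.8 points for line 1 and 62.2 for line 3 over 2 tiles each, and Zfp811 had 47.7 and -62.5 points at 1 tile each, per the authors' deposited tables.

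**Figure D2:**
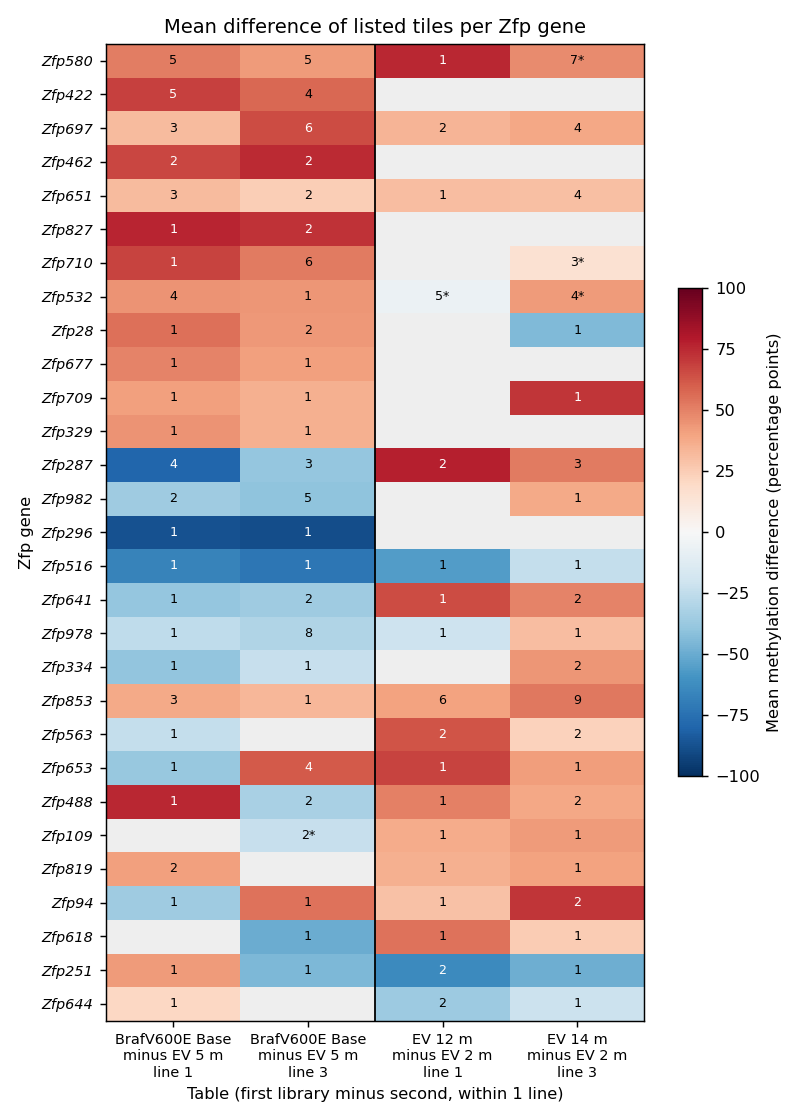
Mean methylation difference in percentage points of the listed tiles of each Zfp gene named for a gain or loss in both lines, in each of the 4 tables; red is a gain, blue a loss, light grey no listed tile, the number in a cell counts its tiles and an asterisk marks tiles of both directions. Zfp287 and Zfp641 are blue in both BrafV600E columns and red in both long-culture columns, while Zfp697, Zfp853 and Zfp651 are red in every column and Zfp516 is blue in every column.

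The long-culture EV libraries, set against the 2-month EV libraries of their own line, address time in culture without the oncogene. Here 13 members (3.61%) gained in both lines, against 3.15% of all genes, and 3 (0.833%) lost in both, against 1.21%. These shares too are near those of all genes. No member gained in line 1 and lost in line 3 (0.411% of all genes), 3 (0.833%) did the reverse, against 2.73%, and 12 (3.33%) were mixed in at least 1 line, against 7.31%. In 1 line only, 29 members (8.06%) gained, against 9.42%, and 23 (6.39%) lost, against 8.07%.

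Zfp853 (chr5:143285999-143293982) led the gains with long culture. It gained at 6 tiles by a mean of 39.9 points for line 1 and at 9 tiles by 52.9 points for line 3 per the authors' deposited tables, and all 6 tiles of line 1 were among the 9. These tiles form 2 groups, at the start and 4.8 to 6.6 kb downstream. The tile over the promoter window shown above gained 25.5 points for line 1 and 52.2 points for line 3 with long culture in the authors' deposited tables. With BrafV600E the authors' deposited tables list that tile too, with gains of 40.9 points for line 1 and 33.2 points for line 3. The downstream group is listed with long culture only.

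Zfp287 and Zfp641 gained with long culture and had lost with BrafV600E. The authors' deposited long-culture tables list start gains of Zfp287 of 69.5 and 85.9 points in line 1, and of 35.7, 51.0 and 70.2 points for line 3. All 3 of these tiles are among the tiles lost with BrafV600E, and the tile at chr11:62731601-62731800 is in all 4 tables. At that tile the authors' deposited differences were -81.3 and -33.9 points with BrafV600E and 69.5 and 51.0 points with long culture, in lines 1 and 3. At Zfp641 (chr15:98285585-98296515) the directions belong to different places. Long culture gained over the promoter window shown above, by 64.9 points for line 1 and by 50.8 and 48.7 points for line 3 per the authors' deposited tables. The BrafV600E losses of Zfp641 lay 7.7 and 9.9 kb downstream, inside the gene.

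The other members that gained with long culture in both lines had 1 to 4 tiles per line. At Zfp563, on chromosome 17, the mean gain over 2 tiles was 62.7 points for line 1 and 23.0 points for line 3 per the authors' deposited tables. Zfp618, whose human counterpart binds the methylation reader UHRF2, gained at 1 shared start tile, by 54.3 and 25.2 points for lines 1 and 3 per the authors' deposited tables. Zfp819, a repressor of endogenous retroelements in mouse, gained at neighbouring start tiles by 35.7 points for line 1 and 40.5 points for line 3 per the authors' deposited tables. With BrafV600E both of these Zfp819 tiles gained in line 1 only, by 36.9 and 45.0 points in the authors' deposited table. Zfp488, a factor of oligodendrocyte differentiation, gained at start tiles by 50 points for line 1 and a mean of 39.0 points for line 3 per the authors' deposited tables. The mean gain of Zfp651 was 30.7 points for line 1 and 30.2 points for line 3 per the authors' deposited tables. Zfp653, Zfp109 and Zfp94 gained without a tile common to both lines, and the line 1 tile of Zfp94 also lies in Zfp61.

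Losses with long culture in both lines were seen at Zfp251, Zfp516 and Zfp644. Zfp251 had a mean of -63.6 points over 2 tiles for line 1 and -48.9 at 1 other tile for line 3 per the authors' deposited tables. Zfp516 had -56.2 points for line 1 and -24.0 for line 3 per the authors' deposited tables, at different tiles. Zfp644, whose human counterpart binds the H3K9 methyltransferases G9a and GLP, lost at a shared start tile, with -37.1 points for line 1 and -21.1 for line 3 per the authors' deposited tables. The members that lost in line 1 and gained in line 3 were Zfp30, Zfp74 and Zfp978. Zfp30 had 2 tiles in each line, with means of -41.0 points for line 1 and 23.5 for line 3 per the authors' deposited tables, and none of them was common to the lines.

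**Figure D3:**
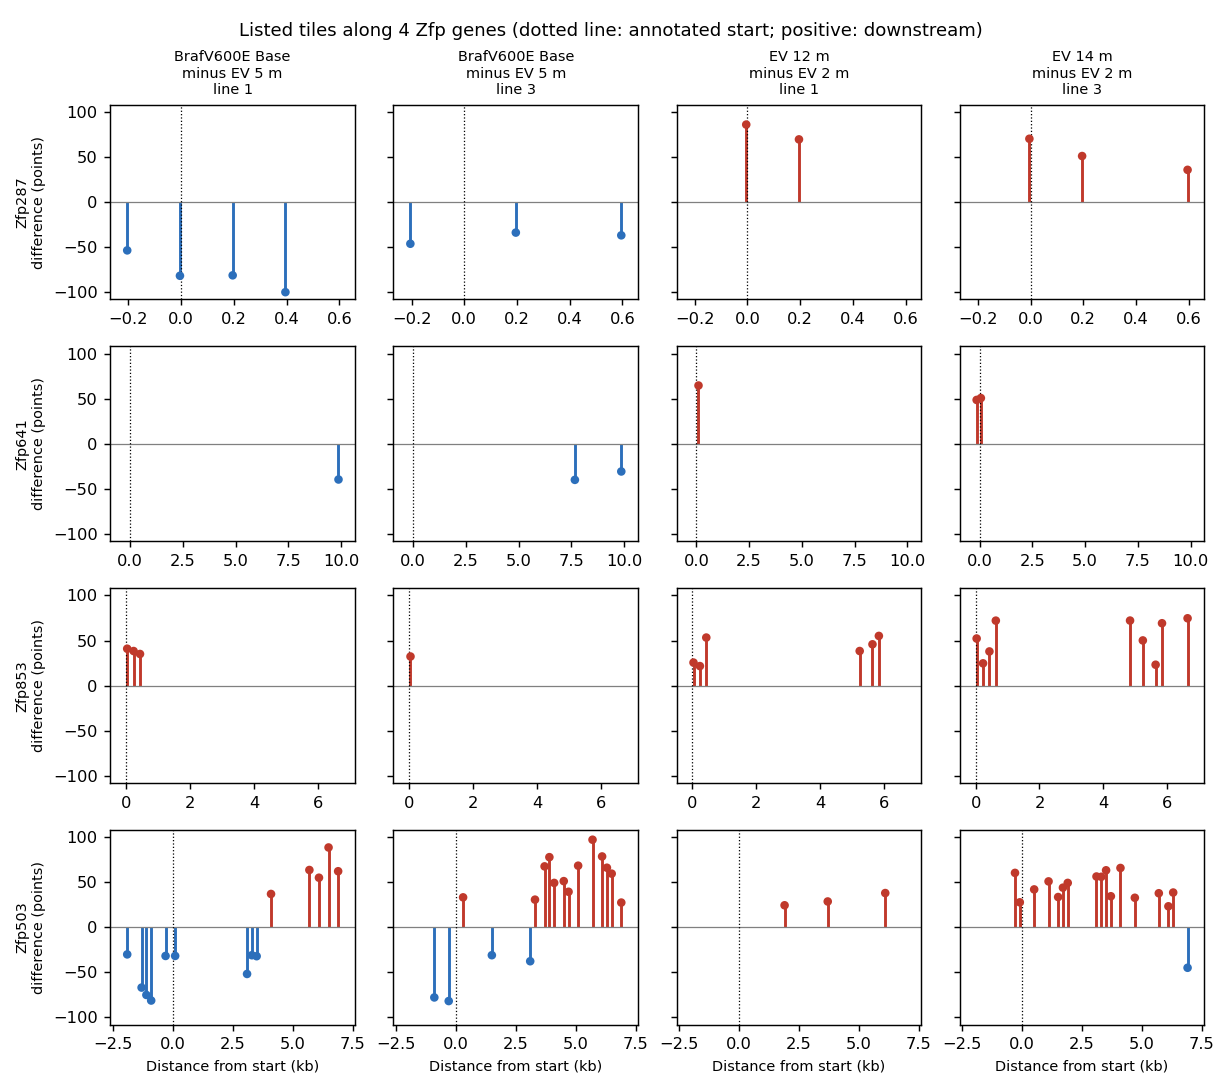
Difference in percentage points of each listed tile at Zfp287, Zfp641, Zfp853 and Zfp503 by the distance of its centre from the nearest annotated start in kb, for the 4 tables; the dotted line marks the start, and gains are red and losses blue. Zfp287 tiles near the start point down with BrafV600E and up with long culture, Zfp641 tiles of the BrafV600E tables lie 7.7 to 9.9 kb downstream, and Zfp503 tiles change direction along the gene with BrafV600E.

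The 4 genes with most listings had tiles of both directions. In some tables the directions differed between stretches of the gene, and in others they did not; the stretches were set after their values were seen. Zfp503, a repressor in the developing striatum, had 5 gains and no loss more than 3.6 kb downstream of its start with BrafV600E in line 1, with a median difference of 62.3 points in the authors' deposited table. Its other 9 tiles there all lost, with a median of -32.0 points in the authors' deposited table. In line 3 the counts were 11 gains and no loss beyond 3.6 kb, with a median of 66.1 points, and 2 gains and 4 losses elsewhere, with a median of -34.3 points, in the authors' deposited table. With long culture 16 of 17 tiles of line 3 gained, with a median of 42.1 points in the authors' deposited table, and all 3 of line 1 did.

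Zfp536, a repressor of neural differentiation, spans 456017 bp on chromosome 7. Within 6 kb of a start, 10 tiles gained and none lost with long culture in line 3, with a median of 57.7 points in the authors' deposited table, while beyond it 4 gained and 6 lost. With BrafV600E in line 3, 3 tiles gained and 18 lost beyond 6 kb, with a median of -40.1 points in the authors' deposited table, and 2 gained and 1 lost within. In line 1 with BrafV600E, 6 gained and 1 lost within 6 kb and both tiles beyond gained, so the stretches did not differ in direction there. In line 1 with long culture, 1 gained and 1 lost within 6 kb and all 3 beyond lost.

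Zfp423 works with SMAD proteins in BMP signalling and marks preadipocytes. Within 6 kb of a start, 7 of its tiles gained and none lost with long culture in line 3, and 5 gained and 3 lost beyond it. With BrafV600E in line 3, 4 gained and 11 lost beyond 6 kb and 2 gained and 1 lost within. In line 1 all 5 of its tiles gained with BrafV600E, in both stretches, and with long culture 2 gained and 1 lost within 6 kb and 2 lost beyond. Zfp521, which opposes adipocyte formation, has no promoter entry, so its tiles were not placed by distance; with BrafV600E 4 of its tiles gained and 2 lost in line 1 and 2 gained and 8 lost in line 3, and with long culture 1 gained and 1 lost in line 1 and 8 gained and 1 lost in line 3.

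Direction was then set against position over all members. Within 1 kb of a start, 141 distinct tiles lay at 77 members, 239 lay elsewhere in the spans of 70 members, and 34 in the flanks of 21. Either gene end counted as a start at the 59 members without a promoter entry. A tile at several members can count in more than 1 of these places. For members with an annotated start in the promoter table, 77.8% of 45 tiles within 1 kb gained with BrafV600E in line 3, and 40.7% of 91 tiles over 5 kb away did. At other genes these shares were 65.2% and 34.4%, so both fell with distance. Of the 91 Zfp tiles, 21 lay at Zfp536 and 15 at Zfp423, all beyond 6 kb, and 18 and 11 of these lost. The Zfp share over 5 kb without these genes was not computed. In line 1 the Zfp shares with BrafV600E were 67.3% of 49 tiles within 1 kb and 70.8% of 24 over 5 kb, against 78.3% and 62.3% at other genes. With long culture in line 3 they were 80% of 55 tiles and 75% of 56, against 90.6% and 60.2% at other genes. Line 1 with long culture had 63.0% of 27 tiles and 58.8% of 17, against 62.5% and 27.7% at other genes. The exact 95% interval of the Zfp share over 5 kb in that table was 32.9 to 81.6, and no difference from other genes was tested.

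**Figure D4:**
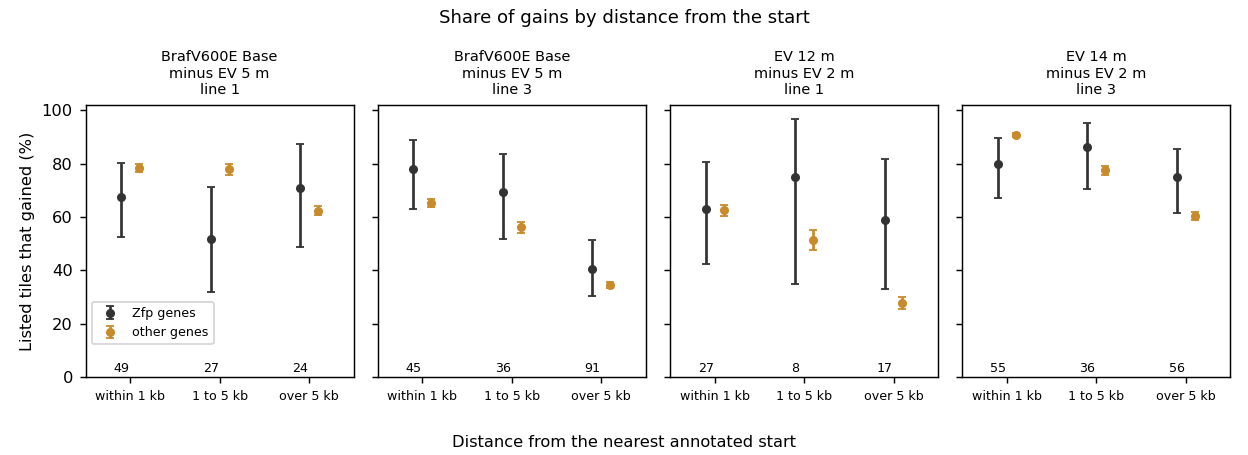
Share of listed tiles that gained, in percent, by distance from the nearest annotated start, at Zfp genes and at other genes in the 4 tables; points are shares, bars exact 95% binomial intervals for counting error only, and the numbers at the foot count Zfp tiles. The drop with distance at Zfp genes is steepest in BrafV600E line 3, at 77.8% within 1 kb and 40.7% over 5 kb. Of the 91 tiles over 5 kb there, 21 lie at Zfp536 and 15 at Zfp423, and 18 and 11 of these lost.

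Most Zfp tiles found in the tables of both lines had a common direction. With BrafV600E, 54 Zfp tiles were listed in both, which is 42.2% of the line 1 list and 25% of the line 3 list. Of these, 36 gained in both, 10 lost in both and 8 moved in opposite directions, so 85.2% had the same direction (exact 95% interval 72.9 to 93.4), against 74.1% of all autosomal tiles listed in both. With long culture 30 tiles were listed in both, 44.1% and 17.2% of the lists. There 25 gained in both, 2 lost in both and 3 were opposite, so 90% had the same direction (73.5 to 97.9), against 68.7%. Without Zfp536, Zfp503, Zfp423 and Zfp521 the shares were 89.2% of 37 and 95.2% of 21. With tiles within 500 bp merged into regions they were 79.1% of 43 regions (64.0 to 90.0) and 84% of 25 (63.9 to 95.5). Both of these intervals hold the unmerged all-tile shares of 74.1% and 68.7%. The merged all-tile shares and the shares at other protein-coding genes were not computed.

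**Figure D5:**
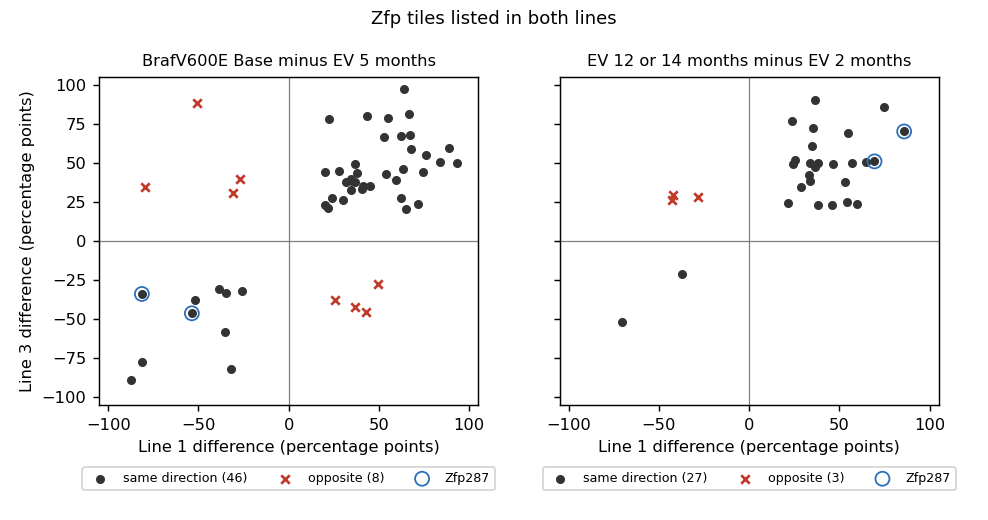
Difference in line 3 against difference in line 1, both in percentage points, for each Zfp tile listed in both lines, with BrafV600E on the left and long culture on the right; crosses mark tiles of opposite direction and rings Zfp287. With BrafV600E 46 of 54 tiles and with long culture 27 of 30 lie in a quadrant of equal direction, and the ringed tiles sit in opposite corners of the plots.

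The comparisons of a line have no library in common. In line 1, 22 Zfp tiles were listed both with BrafV600E and with long culture, and 13 (59.1%) had the same direction, against 48.9% of all such tiles. In line 3 there were 53, and 37 (69.8%) had the same direction, against 52.1%. Gains in both made up 11 of the 13 and 29 of the 37.

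Of the 583 tiles listed in all 4 tables, 6 lay at Zfp genes. Besides Zfp287 and the Zfp580 and Zfp853 tiles given above, these were at Zfp503, Zfp521 and Zfp532. All but the Zfp287 tile gained in every table, as did 36% of the 583. The tile at chr14:21983401-21983600, in the downstream flank of Zfp503, gained 55.1 and 78.7 points with BrafV600E and 38.0 and 23.4 points with long culture for lines 1 and 3 per the authors' deposited tables. The tile at chr18:65581001-65581200, at an end of Zfp532, gained 74.4 and 43.9 points with BrafV600E and 24.0 and 76.6 points with long culture for lines 1 and 3 per the authors' deposited tables. The tile at chr18:13970201-13970400 in Zfp521 gained 20.1 and 43.9 points with BrafV600E and 33.3 and 42.3 points with long culture for lines 1 and 3 per the authors' deposited tables. A loss in both lines with BrafV600E and a gain in both with long culture, the Zfp287 pattern, was found at 6% of the 583 tiles. None of the 6 lost in every table (3.6% of the 583) or gained with BrafV600E and lost with long culture in both lines (4.29%).

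At gene level 3 members, Zfp697, Zfp853 and Zfp651, gained in all 4 tables (0.576% of all genes did), and Zfp516 lost in all 4 (0.0919% of all genes). Zfp287 and Zfp641 lost in both lines with BrafV600E and gained in both with long culture, which 25 genes of 20665 (0.121%) did. The reverse pattern was found at no member and at 25 genes (0.121%).

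A list of 19 members with known roles was looked up whatever they showed, and 10 of them had a listed tile in any table, against 46.3% of all genes. Zfp57, a KRAB protein that keeps imprinted methylation, had a single tile, a gain of 23.8 points with BrafV600E in line 3 of the authors' deposited table. Zfp445, which also keeps imprints, Zfp809, which silences retroviruses, and Zfp42, the pluripotency marker Rex1, had none. Zfp568, a KRAB repressor of a placental Igf2 transcript, gained 59.2 points at 1 tile with BrafV600E in line 1 of the authors' deposited table. Zfp36, which encodes tristetraprolin, a protein that promotes mRNA decay, had 2 gained flank tiles with BrafV600E in line 3, at 92.3 and 22.2 points in the authors' deposited table. Zfp703, an oncogene in human breast cancer, gained at 3 tiles by a mean of 38.5 points with BrafV600E in line 3 of the authors' deposited table. Zfp335, needed by neural progenitors, had -57.4 points at 1 tile with long culture in line 3 of the authors' deposited table. Each of these was listed in 1 table only.

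Zfp64, whose human counterpart sustains MLL expression in leukaemia, was listed in every table. With BrafV600E it had a mean of 37.8 points over 2 tiles for line 1 and -73.5 at 1 tile for line 3 per the authors' deposited tables. With long culture it gained 20.4 points at 1 tile for line 1 and a mean of 51.9 points over 3 tiles for line 3 per the authors' deposited tables. All gains lay within 1 stretch of the gene and the loss elsewhere. Zfp281, Zfp148, Zfp143, Zfp932, Zfp91 and Zfp106 had no listed tile.

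A list of genes whose products work with KRAB zinc finger proteins or keep the methylation they direct was set beside the members. Of 22 such genes, including Trim28, Setdb1, the HUSH subunits Tasor, Mphosph8 and Pphln1, and the DNA methyltransferases, 19 had no listed tile with BrafV600E in line 1, 15 in line 3, and 19 in each line with long culture. Over all genes, 24.8% and 33.6% had a listed tile with BrafV600E in lines 1 and 3, and 17.3% and 27.8% with long culture. With BrafV600E in line 1 none had a gained tile, against 18.6% of all genes, and 3 had a lost tile, against 11%. These were Dnmt1, the maintenance methyltransferase, with a mean of -77 points over 2 tiles, its partner Uhrf1 with -32 points and Mphosph8 with -26.8 points in the authors' deposited table. None of these was listed in line 3 with BrafV600E. There 5 of the 22 had a gained tile, against 21.7%, and 3 a lost tile, against 21.1%. In that line Atf7ip, Hdac1, Pphln1 and Tasor gained, with means of 55.6, 41.1, 32.5 and 27.4 points in the authors' deposited table. Dnmt3a gained at 2 tiles and lost at 2, and Daxx and Suv39h2 lost at 1 tile each. With long culture 0 and 2 of the 22 had a gained tile in lines 1 and 3, against 8.91% and 20.9%, and 3 and 2 had a lost tile, against 11.3% and 12.7%. The authors' deposited long-culture table of line 1 gives Hdac1 -66.7 points on average over 3 tiles. Its values for Dnmt3a and Pphln1 were -30.4 and -22.0, at 1 tile each. Atf7ip lost at 2 tiles with long culture in line 3, by -47.5 points on average per the authors' deposited table. Hdac1, Pphln1 and Atf7ip are thus among the genes that gained with BrafV600E in line 3. Dnmt1 had 1 gained and 1 lost tile with long culture in line 3. Trim28 gained 40.0 points at 1 tile with long culture in line 3 of the authors' deposited table and was otherwise unlisted, and Setdb1 was unlisted throughout.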

How the data were processed

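Reduced representation bisulfite sequencing libraries of 8 organoid cultures were sequenced as 50-base single-end reads, per the labels' protocols. Per the submitters' processing notes the tools were methylKit 1.7.4, Bismark 0.14.3, Trim Galore 0.4.4 and FastQC 0.11.7, with build GRCm38 (mm10). Their settings, the coverage minimum among them, were not used here. The authors deposited 8 tables, gained and lost tiles of 4 within-line comparisons, with the methylation difference in percent, the p-value and the q-value of each tile, per the file headers. The values show 200 bp tiles with an absolute difference of at least 20 points and a q-value of at most 0.01.

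Tiles were assigned to the RefSeq spans of GRCm38.p6 genes with 2 kb flanks, and starts came from the RefSeq promoter table, which matched 301 of 360 members; for the other 59 either gene end counted as a start. Python 3.11.15, pandas 2.3.3, NumPy 2.4.6, SciPy 1.17.1 and matplotlib 3.10.9 were used. Shares have exact Clopper-Pearson 95% intervals, which cover counting error only. The assignment and counting were tested on simulated tiles. With 1 library per group and line no test was made; a planned split by protein domains was not made, as protein sequences were not used here. Members, gene lists and the naming rule were chosen with earlier results of these data known. The rule names, per comparison, members listed in 1 direction in both lines, ranked by the smaller tile count and then the smaller mean difference (the first 12 gained and 8 lost), the first 4 of opposite direction, members of 1 direction in all tables, and 19 members of known role. Genes named beyond it, such as Zfp536 and the rest of the 18, were named for their tile counts or to complete a count after values were seen.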

Additional observations from a re-analysis of the deposited data

How the results depend on the processing

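Of 134 alternative values of 16 results, 85 stayed close to the value reported and 49 moved, none of them through leaving out the flanks or tiles inside other genes. No paired analysis was possible because each table already compares 1 library with 1 library of the same line and no result comes from a test. In what follows BrafV600E precedes long culture where both are given. With an absolute difference of at least 40 points, 10 and 6 members gained in both lines and 3 lost with BrafV600E, and the gain share with long culture in line 1 was 43.6%. Under it 13.9% and 11.4% of members had a gained tile in either line and 10% and 7.78% a lost tile, and 100% of 8 long-culture tiles agreed in direction. With q of at most 0.001, 4 members lost in both lines with BrafV600E, 8 gained with long culture, 11.7% and 7.5% had a lost tile and the pooled long-culture gain share was 78.3%. Within 1 kb of the start, 1 and 1 members lost in both lines, 75.9% of line 3 and 71.7% of pooled tiles gained with BrafV600E, 12.8% and 8.89% of members had a gained tile and 4.72% and 5.28% a lost tile. Merging tiles within 500 bp gave pooled gain shares of 51.2% and 63.1%, and 68.1% for long culture in line 3. At least 2 tiles per gene and line left 5 and 4 members gained and 2 and 0 lost in both lines. Without the 10 longest members the BrafV600E gain share was 67.1% in line 3 and 64.6% pooled, and without the 4 members with most listings, an alternative chosen after seeing the data, it was 59.2% in line 3. With a single line left, 36 to 44 and 21 to 41 members gained and 24 to 31 and 14 to 20 lost. The pooled gain share then ran from 52.3% to 64.1% and from 57.4% to 77.6%. A gained tile was then present at 11.4% to 14.7% and 7.22% to 14.4% of members, and a lost tile at 8.06% to 11.1% and 5.28% to 8.61%. With a single line left, the rule of both lines asks for that line only, so the counts of members gained or lost rise by construction. The pooled share is then the share of that line, and a gained or lost tile can come from that line only. Apart from this and from the smaller sets that other alternatives leave by construction, the cause of the moves was not tested. The depth behind tiles is unknown, so no limit from depth can be given.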

Other observations

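Direction differed between neighbouring tiles, or between tables at 1 tile, at some members. The tile at chr7:24301001-24301200, which lies in Zfp61 and in the flank of Zfp94, had -35.2 points with BrafV600E and 29.3 points with long culture for line 1 per the authors' deposited tables, which give the adjacent tile 54.2 points with BrafV600E for line 3. At Zfp800 on chromosome 6, the tile at chr6:28395801-28396000, 2.1 kb from a start, was lost in each table that lists it, with -41.0 points with BrafV600E for line 3 and -70.5 and -51.7 points with long culture for lines 1 and 3 per the authors' deposited tables. The start tile 0.1 kb away from the annotated start of Zfp800 gained 71.4 and 23.5 points with BrafV600E for lines 1 and 3 and 25.9 points with long culture for line 3 per the authors' deposited tables. At Zfp628, a tile that lies inside the neighbour Nat14 had -48.5 points with BrafV600E for line 3 and 52.8 points with long culture for line 1 per the authors' deposited tables. These genes were picked after their values were seen.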
